A study of Mus musculus with 6 samples.

Results

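The genes described here are 10 genes of glucocorticoid activation and response, measured in 3T3-L1 adipocytes, a mouse preadipocyte line turned into fat cells in culture, after infection with an adenovirus carrying LacZ (AdLacZ) or Lmo3 (AdLmo3). They are the enzyme pair Hsd11b1 and H6pd, the corticosteroid receptors Nr3c1 and Nr3c2, and the response genes Fkbp5, Tsc22d3, Sgk1, Errfi1, Zbtb16 and Rasd1. All 10 of the 24421 gene symbols counted were found by symbol, and all 10 were among the 12766 genes tested. The members were chosen from results of the same AdLmo3 against AdLacZ comparison, so their differences are given as a description and lend no support to the list.

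There were 3 libraries in each group, each from a separate infection of the same cell line. The labels give the cells' strain as C57BL/6, which was not checked here. The authors' methods name C57BL/6J for their mice and give no strain for the 3T3-L1 line. In all groups differentiation began 2 days after confluency in medium with insulin (870 nM), TZD (5 µM), the synthetic glucocorticoid dexamethasone (1 µM) and IBMX (500 µM), and on day 3 dexamethasone and IBMX were withdrawn. On day 7 the cells received 100 pfu of virus per cell, and RNA was taken 3 days later, so neither group had dexamethasone in its medium at infection or at harvest. The Lmo3 transgene was a codon-optimized mouse sequence, and Lmo3 was listed at 0 counts in all 6 libraries, so the labels could not be checked through it. Counts assigned to genes ran from 28035639 to 38332335 per library, and 3 counts were worth 0.0768 to 0.111 CPM (read counts scaled to library size and normalized by TMM).

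Glucocorticoids reach their receptor in fat cells partly through local activation. The enzyme encoded by Hsd11b1 sits in the endoplasmic reticulum and turns inactive 11-keto steroids into active ones, with NADPH that H6pd makes in the same compartment from glucose 6-phosphate. The steroid binds the glucocorticoid receptor (Nr3c1) or the mineralocorticoid receptor (Nr3c2), which leave their chaperones, enter the nucleus and act on genes that hold glucocorticoid response elements or through other factors. Dexamethasone is a standard part of the cocktail that starts adipocyte differentiation.

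The classical response element is a pair of inverted AGAACA sites with 3 bases between them (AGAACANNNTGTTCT), which a receptor dimer binds. The 250 bases before each transcription start given by RefSeq (GRCm38.p6) were searched on both strands for this palindrome and for a single AGAACA, which every palindrome also holds. They were also searched for the core of the palindrome, ACANNNTGT. A window was found for 7 of the 10 genes, 15 windows in all, and none was found for Nr3c1, Zbtb16 and Rasd1. The palindrome occurred in 1 of the 7 genes, Sgk1, against 3 of all 27025 genes with a window (0.0111%), or 3 of 32851 windows (0.00913%). A single site occurred in 3 of the 7 genes, Sgk1, H6pd and Tsc22d3, against 18.2% of all genes with a window, and Sgk1 had 6 windows and Tsc22d3 had 3 in which to find one. The core occurred in 1 of the 7 genes, Sgk1, against 6.76% of all genes with a window. It lay inside the palindrome and also in another window of Sgk1. These matches are letters in a window, and no binding was measured. The only window of Hsd11b1 held no match, and all 250 of its bases overlap GENCODE vM21 exons, within transcripts of Hsd11b1 and Lamb3. The windows of Sgk1 that holds the palindrome and of H6pd are shown because the former is a response gene with the full element and the latter is the only one of the activation pair with a single site. Both run 5′ to 3′ on the gene's strand, chr10:21993640-21993889 (plus strand) and chr4:150003237-150003486 (minus strand), both lie within a transcript of their own gene in GENCODE vM21 and overlap no annotated exon, and capitals mark the matches. The palindrome begins 189 bases before that Sgk1 start, and the H6pd site begins 94 bases before its start.
Sgk1: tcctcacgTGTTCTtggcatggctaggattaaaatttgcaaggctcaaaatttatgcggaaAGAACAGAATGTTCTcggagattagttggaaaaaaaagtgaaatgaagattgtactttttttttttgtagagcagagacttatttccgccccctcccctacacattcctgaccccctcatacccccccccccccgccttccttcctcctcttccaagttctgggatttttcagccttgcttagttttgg
H6pd: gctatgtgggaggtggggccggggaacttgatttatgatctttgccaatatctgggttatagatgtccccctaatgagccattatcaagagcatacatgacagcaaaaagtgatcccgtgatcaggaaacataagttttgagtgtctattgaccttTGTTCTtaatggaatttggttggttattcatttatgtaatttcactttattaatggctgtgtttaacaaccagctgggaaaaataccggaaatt

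Per kb of annotated exon, the scale on which genes can be compared, the receptor and the enzyme pair were the most abundant of the 10 genes in AdLacZ cells. Nr3c1 stood at 34.1 ± 2.91 CPM per kb (SD, n = 3), H6pd at 29.0 ± 1.21 and Hsd11b1 at 21.2 ± 3.18. Tsc22d3 followed at 17.0 ± 1.22 CPM per kb, with a range over libraries that overlapped that of Hsd11b1. The ranges of the other neighbours in this order did not overlap. Errfi1 stood at 7.88 ± 1.22 CPM per kb, Sgk1 at 5.02 ± 0.337, Zbtb16 at 4.20 ± 0.297, Fkbp5 at 2.68 ± 0.249, Nr3c2 at 1.99 ± 0.0894 and Rasd1 at 0.211 ± 0.130. The glucocorticoid receptor transcript thus outnumbered that of the mineralocorticoid receptor, with Nr3c1 to Nr3c2 ratios of raw counts of 18.0, 21.5 and 21.5 in AdLacZ libraries 1, 2 and 3 and of 25.1, 23.1 and 21.2 in the AdLmo3 libraries, and the groups overlapped. In AdLmo3 cells Hsd11b1 stood at 39.7 ± 12.8 CPM per kb, with a range of 25.1 to 49.1 that took in those of Nr3c1 (39.4 to 41.5) and H6pd (32.7 to 39.6). Exon length was the union of all annotated transcripts, so a gene with long rarely used exons reads low on this scale.

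**Figure D1:**
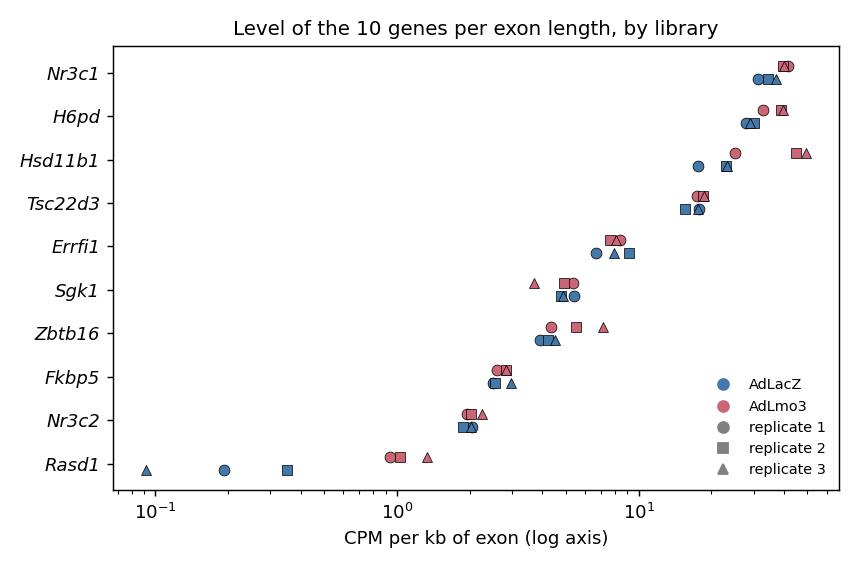
Level of the 10 genes in CPM per kb of annotated exon (log axis), with 1 point per library, blue for AdLacZ and red for AdLmo3, in order of the AdLacZ mean. Nr3c1, H6pd and Hsd11b1 lead the order in AdLacZ cells at means of 34.1, 29.0 and 21.2, and Rasd1 lies lowest at a mean of 0.211.

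In the comparison of AdLmo3 with AdLacZ cells, 9 of the 10 genes had a fitted change above 0 and 1, Sgk1, below 0, and the log2 fold change had a median of 0.17 over the 10 against 0.00138 over all genes tested. By edgeR's quasi-likelihood test with Benjamini-Hochberg adjustment over all genes tested, 1 of the 10 genes, Rasd1, was higher past the adjusted threshold of 0.05 and 0 were lower. Over all genes 4.28% passed that threshold, 2.71% higher and 1.57% lower. At an unadjusted p under 0.05 by edgeR there were 5 members (Hsd11b1, H6pd, Nr3c1, Zbtb16 and Rasd1), where 20.6% of all genes tested had such a p. By DESeq2 with adjustment 3 passed (Rasd1, Hsd11b1 and H6pd), where 8.55% of all genes with an adjusted p passed. The CPM of AdLmo3 and AdLacZ libraries did not overlap for 4 genes, Hsd11b1, H6pd, Nr3c1 and Rasd1, each higher in AdLmo3 cells, and 26.5% of all genes tested did not overlap. Nothing is read from these counts, because the comparison chose the members. Only RNA of whole cultures was measured, so a change in the share of cells that express a gene and a change in RNA per cell cannot be told apart.

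**Figure D2:**
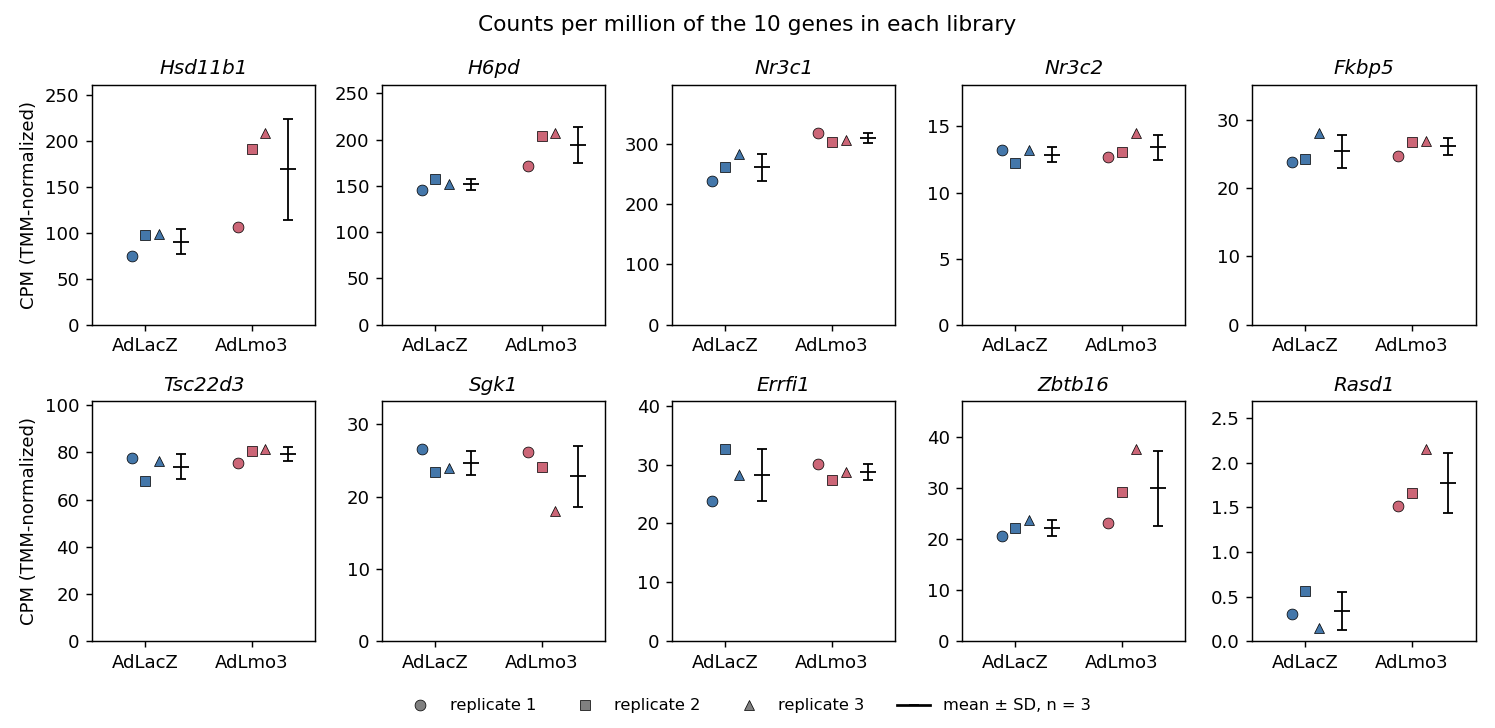
CPM (TMM-normalized, linear axes from 0) of the 10 genes in each library, with symbols for replicates 1 to 3 and the bar for mean ± SD (n = 3). The AdLmo3 libraries lie above all AdLacZ libraries for Hsd11b1, H6pd, Nr3c1 and Rasd1, and the groups overlap for the other 6 genes.

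Hsd11b1 (chr1:193221634-193264075, minus strand, GRCm38), the enzyme that regenerates active glucocorticoid, had the second largest fitted change of the 10 genes. It stood at 74.7, 97.7 and 98.4 CPM in AdLacZ libraries 1, 2 and 3 and at 106.7, 191 and 209 CPM in AdLmo3 libraries 1, 2 and 3. All AdLmo3 libraries were above all AdLacZ libraries, but AdLmo3 library 1 lay close to the AdLacZ range and the other two far above it. The means were 90.3 ± 13.5 and 169 ± 54.6 CPM (SD, n = 3), a log2 fold change of 0.90 ± 0.233 (SE) with a 95% confidence interval of 0.37 to 1.44, or 1.87-fold. It passed the adjusted threshold in the fit without AdLmo3 library 1, where the log2 fold change was 1.15, and also by DESeq2, with no filter on low counts and with the replicate number as a block, but not in the fit reported here.

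H6pd (chr4:149979475-150009023, minus strand), which supplies the NADPH, differed less in size but also varied less. It stood at 145, 158 and 152 CPM with AdLacZ and at 171, 204 and 207 CPM with AdLmo3. The groups did not overlap, and AdLmo3 library 1 was again the lowest of its group. The means were 152 ± 6.35 and 194 ± 19.8 CPM, a log2 fold change of 0.36 ± 0.0870 (95% confidence interval 0.16 to 0.56), or 1.28-fold. As for Hsd11b1, the call was made without AdLmo3 library 1, by DESeq2, with no filter and with the block. The ratio of Hsd11b1 to H6pd counts was 0.514, 0.619 and 0.648 with AdLacZ and 0.622, 0.940 and 1.01 with AdLmo3, and the groups overlapped through AdLmo3 library 1.

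Of the receptors, Nr3c1 stood at 239, 263 and 284 CPM with AdLacZ and at 319, 303 and 307 CPM with AdLmo3. The groups did not overlap, although the highest AdLacZ and the lowest AdLmo3 library lay close together. The log2 fold change was 0.24 ± 0.0786 (95% confidence interval 0.06 to 0.42), or 1.18-fold, and it did not pass the adjusted threshold. Unlike the enzyme pair, Nr3c1 was highest in AdLmo3 library 1. Nr3c2 stood at 13.2, 12.2 and 13.2 CPM against 12.7, 13.1 and 14.5 CPM, and the groups overlapped. Its log2 fold change was 0.06 with an interval of −0.16 to 0.27, which leaves out a change as large as that fitted for Hsd11b1. Of the exon bases of Nr3c2, 3.82% overlap an opposite-strand gene, and the strand setting of the counting is not given in the sources used here.

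**Figure D3:**
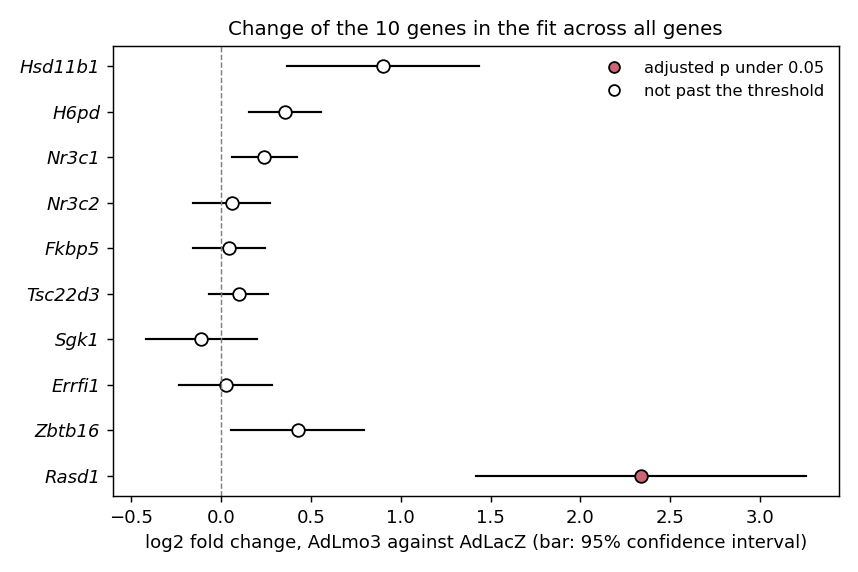
Fitted log2 fold change of each of the 10 genes, AdLmo3 against AdLacZ, with 95% confidence intervals from edgeR. The intervals of Hsd11b1, H6pd, Nr3c1, Zbtb16 and Rasd1 lie above 0, those of the other 5 genes include 0, and the filled point marks the only one past the adjusted threshold, Rasd1 at 2.33.

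Among the 6 response genes, Rasd1 was the only one whose groups did not overlap. Rasd1 (chr11:59963181-59964944, minus strand) encodes a Ras-family GTPase first described as induced by dexamethasone. It was counted 11, 22 and 5 times with AdLacZ and 56, 61 and 58 times with AdLmo3, or 0.309, 0.563 and 0.147 CPM against 1.51, 1.66 and 2.15 CPM. Every AdLmo3 library was above every AdLacZ library, and AdLacZ library 3 was close to the level of 3 counts. The log2 fold change was 2.33 ± 0.399 (95% confidence interval 1.42 to 3.25), or 5.04-fold, the largest of the 10 genes on the lowest counts. The call was lost in the fits without AdLacZ library 1, without AdLacZ library 3 and without AdLmo3 library 2, where the log2 fold change was still at least 1.99 over all fits with 1 library left out. Per kb Rasd1 reached 1.10 ± 0.207 CPM in AdLmo3 cells, still the lowest of the 10 genes.

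Zbtb16 (chr9:48654297-48836222, minus strand) encodes the zinc finger repressor PLZF and is strongly induced by glucocorticoids in many cell types. It stood at 20.6, 22.2 and 23.7 CPM with AdLacZ and at 23.1, 29.1 and 37.5 CPM with AdLmo3. The groups overlapped through AdLmo3 library 1, which lay inside the AdLacZ range. The log2 fold change was 0.43 ± 0.161 (95% confidence interval 0.06 to 0.80), and it did not pass the adjusted threshold. Without AdLmo3 library 1 the log2 fold change was 0.59 and passed, and without AdLmo3 library 3 it was 0.23 and did not.

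Fkbp5, Tsc22d3, Sgk1 and Errfi1, the first 3 of which are widely used readouts of the receptor, differed little between the groups. Fkbp5, a co-chaperone that lowers the receptor's affinity for its ligand, stood at 23.7, 24.2 and 28.0 CPM with AdLacZ and at 24.6, 26.8 and 26.9 CPM with AdLmo3. Its log2 fold change was 0.04 (95% confidence interval −0.16 to 0.24). Tsc22d3, which encodes the anti-inflammatory leucine zipper protein GILZ, stood at 77.5, 67.9 and 76.4 CPM against 75.7, 80.6 and 81.3 CPM, with a log2 fold change of 0.10 (−0.06 to 0.26). The groups overlapped for both genes.

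Sgk1, a serum- and glucocorticoid-regulated kinase whose upstream window holds the palindrome shown above, stood at 26.5, 23.4 and 24.0 CPM with AdLacZ and at 26.2, 24.1 and 18.0 CPM with AdLmo3. AdLmo3 library 3 was below all other libraries and the other two lay within the AdLacZ range. The log2 fold change was −0.11 (95% confidence interval −0.42 to 0.20). Errfi1, a feedback inhibitor of the EGF receptor, stood at 23.8, 32.6 and 28.3 CPM against 30.1, 27.3 and 28.8 CPM, with a log2 fold change of 0.03 (−0.23 to 0.29). All AdLmo3 libraries of Errfi1 lay within the AdLacZ range. The signs of Fkbp5, Sgk1 and Errfi1 each turned when 1 library was left out.

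The adipocyte markers were also higher in AdLmo3 cells. All 10 adipocyte markers had a fitted change above 0 and 8 of the 10 rose past the adjusted threshold, and their median log2 fold change was 0.59, but in the fits with 1 library left out this count ranged from 1 (without AdLacZ library 3) to 8, and it was 5 without AdLacZ library 1 and 4 without AdLacZ library 2 or AdLmo3 library 2. Their summed level was 20559 to 22750 CPM with AdLacZ and 27853 to 33702 CPM with AdLmo3. Adipoq, the hormone adiponectin, rose by 1.05 on the log2 scale, Cfd by 0.81, the lipid droplet gene Cidec by 0.69 and Fabp4 by 0.62, while Lpl (0.23) did not pass. Relative to the AdLacZ mean, the mean of the 10 markers was 1.36, 1.56 and 1.62 in AdLmo3 libraries 1, 2 and 3, where Hsd11b1 was 1.18, 2.12 and 2.31 and H6pd was 1.13, 1.34 and 1.37. Library 1 was thus the lowest for all 3, as it was for Zbtb16 (1.04, 1.31 and 1.69) and Rasd1 (4.45, 4.87 and 6.32). It was the lowest as well for Nr3c2 (0.985, 1.02 and 1.13), Fkbp5 (0.973, 1.06 and 1.06) and Tsc22d3 (1.02, 1.09 and 1.10). Nr3c1 (1.22, 1.16 and 1.17), Sgk1 (1.06, 0.978 and 0.732) and Errfi1 (1.07, 0.968 and 1.02) were highest there. Within AdLacZ, library 1 was also the lowest for Hsd11b1 (0.827, 1.08 and 1.09), H6pd (0.957, 1.04 and 1.00) and Zbtb16 (0.929, 1.00 and 1.07). Nr3c1, too, was lowest in AdLacZ library 1 (0.913, 1.00 and 1.08). The markers (0.992, 0.973 and 1.03) and Rasd1 (0.909, 1.66 and 0.434) were not lowest in that library. The marker mean also hides single genes, since Cidec was highest in AdLmo3 library 1. The ratio of Hsd11b1 to Adipoq counts was 0.0399, 0.0572 and 0.0536 with AdLacZ and 0.0352, 0.0499 and 0.0476 with AdLmo3, and the groups overlapped. Adipoq had the largest fitted change of the 10 markers and Slc2a4 the smallest (0.08), so this ratio does not stand for ratios to the other markers. The part of the adipocyte markers in the results for the 10 genes was not tested. None of the 10 undifferentiated or fibroblast markers passed the threshold by edgeR (0 also at an unadjusted p under 0.05), and their summed levels overlapped, at 15586 to 20034 CPM and 15419 to 23052 CPM, with Col3a1 (0.12) and Col1a1 (0.16) the most abundant. Of 6 macrophage and endothelial markers 2 were tested, Cd68 (−0.74) and Pecam1 (−0.81), neither past the threshold by edgeR with 1 at an unadjusted p under 0.05. The summed level of the 6 was 3.37 to 6.19 CPM in AdLacZ and 2.18 to 3.94 CPM in AdLmo3 libraries. Ptprc and Adgre1 had at most 2 counts in any library of either group.

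**Figure D4:**
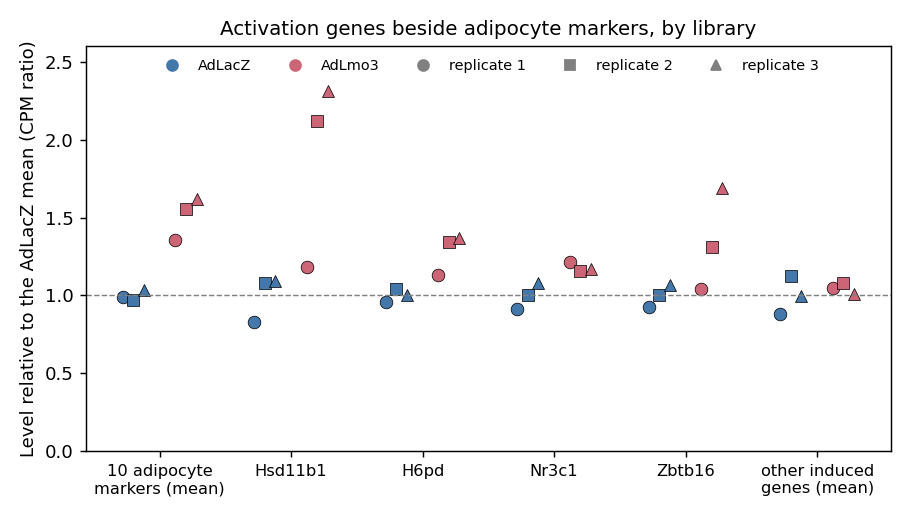
Level of the adipocyte markers, 4 of the 10 genes and the other glucocorticoid-induced genes in each library, relative to the AdLacZ mean (CPM ratio, linear axis from 0, dashed line at 1). AdLmo3 library 1 (red circle) is the lowest of its group for the markers, Hsd11b1, H6pd and Zbtb16, at 1.36, 1.18, 1.13 and 1.04. It is the highest of its group for Nr3c1, at 1.22. The mean of the 24 other induced genes runs from 0.884 to 1.12 over all libraries.

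Beyond the 10 genes, 24 other genes known to be induced by glucocorticoids were read from the same fit. Of these, 13 had a fitted change above 0 and 11 below, and the median log2 fold change was 0.02. At an unadjusted p under 0.05 by edgeR there were 6 of the 24, where 20.6% of all genes tested had such a p. By edgeR 1 rose and 0 fell past the adjusted threshold, and by DESeq2 3 rose (Lpin1, Irs2 and Pik3r1) and 1 fell (Angptl4). The 1 by edgeR was Lpin1, the phosphatidate phosphatase lipin, at 349.7 ± 48.0 CPM in AdLacZ and 532 ± 40.2 CPM in AdLmo3 cells (log2 fold change 0.61, adjusted p = 0.0240 by edgeR), and its call was lost without AdLacZ library 3 and without AdLmo3 library 2. The clock gene Per1 (0.04), the transcription factors Klf9 (−0.06) and Cebpd (0.05) and the phosphatase gene Dusp1 (0.25), all fast responders to the receptor, did not pass by either tool. Angptl4, an inhibitor of lipoprotein lipase, stood at −0.23 by both tools, not past the threshold by edgeR and lower past it by DESeq2 (adjusted p = 0.0496). The metallothionein genes Mt1 (−0.23) and Mt2 (−0.64) did not pass, and their levels varied several-fold among the AdLacZ libraries, from 125 to 314 CPM for Mt1 and from 69.6 to 237 CPM for Mt2. Of 14 genes known to be repressed by glucocorticoids, 12 were tested, 10 with a fitted change above 0 and 2 below, with a median of 0.34. None passed by edgeR or by DESeq2 (3 at an unadjusted p under 0.05 by edgeR), and the most abundant, Csf1 and Vcam1, had log2 fold changes of 0.13 and −0.000829.

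The chaperones that hold the receptor ready for its ligand mostly had fitted changes below 0. Of 12 chaperones and co-chaperones 9 were below 0 and 3 above, with a median of −0.12, where 6329 of all 12766 genes tested were below 0. At an unadjusted p under 0.05 by edgeR there were 5 of the 12, where 20.6% of all genes tested had such a p. By edgeR 1 fell past the threshold and 0 rose, and by DESeq2 1 fell and 1 rose (Bag1, at 0.23). The 1 that fell, by both tools, was Stip1, which hands clients from Hsp70 to Hsp90, at 171 ± 7.05 CPM in AdLacZ and 133 ± 1.49 CPM in AdLmo3 cells (log2 fold change −0.36, adjusted p = 0.0192 by edgeR), and its call was lost without AdLacZ library 2, without AdLacZ library 3 and without AdLmo3 library 2. Hsp90ab1 (−0.11), Hspa8 (−0.16) and Fkbp4 (0.12), the co-chaperone that competes with Fkbp5, did not pass. Of 12 coregulators 9 were above 0, none passed by edgeR (1 at an unadjusted p under 0.05), and the median was 0.05, with Ncor1 at 0.02 and Ncoa1 at 0.07.

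Most other genes of steroid metabolism were too low to test. Of 14 genes of steroid metabolism and transport 6 were tested, 4 above 0 and 2 below with a median of 0.42, and none passed by edgeR or DESeq2 (2 at an unadjusted p under 0.05 by edgeR), with Cbr1 at 0.59 and Srd5a3 at −0.03. The groups did not overlap for Cbr1, which passed with the replicate block, nor for Srd5a1, at 0.62. Hsd11b2, which inactivates the hormone that Hsd11b1 makes, was at 0 counts in 5 of 6 libraries and had 4 counts in AdLmo3 library 2. Around H6pd, 7 genes of glucose 6-phosphate transport and NADPH supply were tested, 5 above 0 and 2 below with a median of 0.14, and none passed by edgeR (1 at an unadjusted p under 0.05). Slc37a4, which carries glucose 6-phosphate into the endoplasmic reticulum where H6pd uses it, had a log2 fold change of 0.17 (adjusted p = 0.571 by edgeR), and Idh1 and Pgd stood at 0.22 and −0.04. Of 8 relatives of the 10 genes 5 were tested, 1 above 0 and 4 below with a median of −0.03, and none passed by edgeR (0 at an unadjusted p under 0.05), with Tsc22d1 at −0.01 and Tsc22d2 at −0.20. Rasd2, the closest relative of Rasd1, was not tested, with at most 2 counts in any library.

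**Figure D5:**
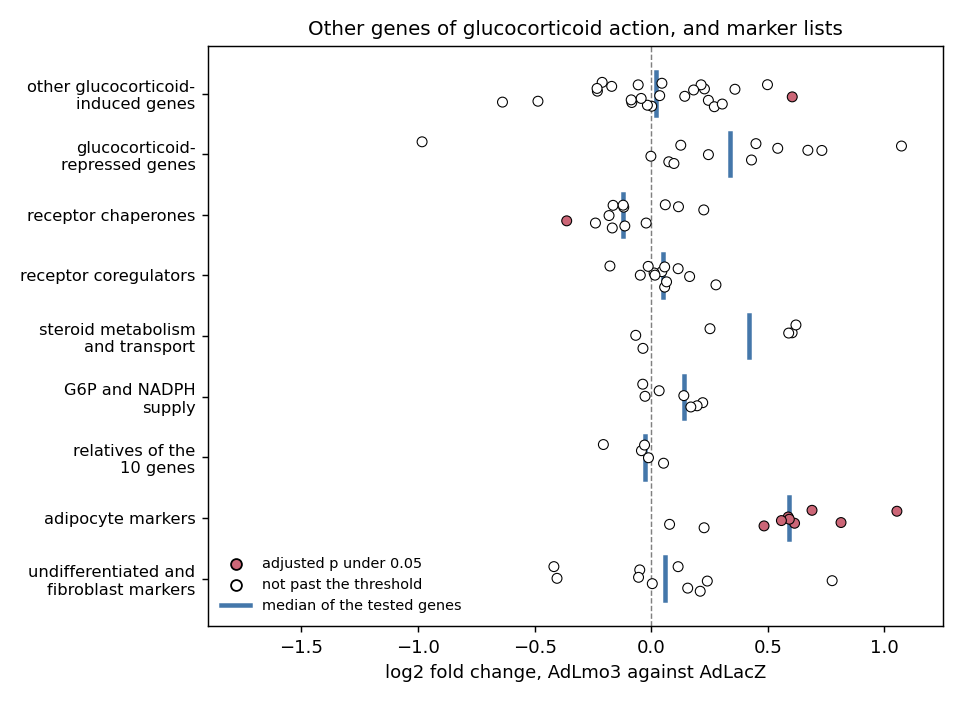
Log2 fold change of each tested gene in 9 lists, AdLmo3 against AdLacZ, with 1 point per gene (vertical scatter carries no value), filled where the adjusted p by edgeR was under 0.05, and the bar at the list's median. The adipocyte markers hold 8 filled points, the other induced genes 1 (Lpin1) and the chaperones 1 (Stip1), and the other lists none.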

How the data were processed

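RNA was measured in 3T3-L1 adipocytes, with 3 AdLacZ and 3 AdLmo3 libraries from separate infections, as the series' design text states. The authors made NEBNext Ultra II libraries, sequenced 75 bp single reads, aligned them with STAR 2.5.0b to mm10 and deposited raw counts per gene symbol. The counting program, its annotation and its strand setting are not given in the sources used here. Rows that name no gene (7.15 to 8.94% without a feature and 0.476 to 0.543% ambiguous) stayed out of library sizes and tests. The counts were filtered with filterByExpr, scaled by TMM and tested in edgeR 4.0.16 (R 4.3.3) by glmQLFit and glmQLFTest without covariates, with Benjamini-Hochberg adjustment over 12766 genes and a threshold of 0.05, and the procedure was tested on simulated data. Alternatives were DESeq2 1.42.0, limma 3.58.1 voom, 2 other scalings, no filter, a stricter filter (50 counts in 3 libraries), a replicate block and leaving out each library. Lengths and gene positions came from GENCODE vM21. The members and gene lists were chosen with earlier results of these data known. In each other list the text names genes past the threshold (at most 4 each way), the 2 most abundant, and Hsd11b2, Fkbp4, Per1, Klf9, Dusp1, Cebpd, Mt1, Mt2, Slc37a4, Rasd2 and Lmo3. Ptprc, Adgre1, Irs2, Pik3r1, Bag1 and Srd5a1 were named outside this rule, after their values were seen.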

Additional observations from a re-analysis of the deposited data

How the results depend on the processing

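Of the 10 genes, 1 passed the adjusted threshold by edgeR, and 3 passed by DESeq2, 3 with no count filter and 3 with the replicate block, in each case Rasd1, Hsd11b1 and H6pd. Leaving out 1 library gave 0 to 4. No scaling turned the sign of any of the 10 genes, and a prior count of 2, chosen after seeing the data, gave Rasd1 a log2 fold change of 2.17. Over all genes 547 of 12766 passed by edgeR, and by DESeq2 1104 of the 12917 with an adjusted p. With no filter 659 of 18078 passed, and with the replicate block 498 of 12766. With 1 library left out 77 (without AdLacZ library 3) to 501 passed. For other induced genes the count was 4 by DESeq2 (3 higher and 1 lower), 2 with no filter and 0 to 2 with 1 library left out. For repressed genes it was 0 to 1, for chaperones 2 by DESeq2 (1 higher and 1 lower) and 0 to 1, for steroid metabolism 1 (Cbr1) with the replicate block, and for adipocyte markers 1 to 8. Signs turned with 1 library left out for Fkbp5 (−0.00172 to 0.12), Sgk1 (−0.215 to 0.0312), Errfi1 (−0.0816 to 0.143), Per1 (−0.12 to 0.24), Klf9 (−0.147 to 0.0416), Cebpd (−0.0674 to 0.217), Mt1 (−0.51 to 0.13), Vcam1 (−0.12 to 0.16), Ncor1 (−0.0249 to 0.0457), Srd5a3 (−0.0650 to 0.0126), Pgd (−0.0712 to 0.0118), Tsc22d1 (−0.105 to 0.0432) and Col3a1 (−0.00542 to 0.27). Vcam1 also turned by DESeq2 (0.00147), voom (0.00994), RLE scaling (0.00126) and the replicate block (0.0103). The causes were not tested.

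The measure used does not settle whether the replicate numbers pair the samples. Deviations from the group means correlated between libraries of the same number at 0.0508, 0.225 and 0.234. Between libraries of different numbers the correlation ran from −0.314 to 0.175. AdLacZ libraries 2 and 3 correlated best with the AdLmo3 library of their own number, and AdLacZ library 1 with AdLmo3 library 3 (0.122). Under the replicate block 498 genes passed in place of 547. Rasd1 rests on 5 to 61 counts per library.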
